A study of Homo sapiens with 8 samples.

Results

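The heat shock factor HSF1 and the cytosolic chaperones most often named as its targets were examined in LP-1 cells, a human multiple myeloma cell line that carries the t(4;14) translocation. The 10 genes were set by name, with no threshold on their values: HSF1, HSPA1A, HSPA1B, HSPA8, HSPH1, DNAJB1, BAG3, HSP90AA1, HSP90AB1 and HSPB1. All 10 passed the minimum mean level of 1 RPKM and were among the 14732 genes tested. RPKM scale the reads of a gene by its length and by the depth of the library, so levels can be compared between genes. The deposited table has 19 rows with these symbols, and the 9 rows placed on alternative haplotypes or patches were listed at 0 in all 8 libraries and were not used. RNA sequencing was carried out after 6 hr in 4 groups of 2 biological replicates. One experiment held SGC-CBP30 at 2.5 μM, an inhibitor of the bromodomains of CBP and EP300, with its own DMSO libraries. The other held CPI203 at 250 nM, an inhibitor of the bromodomains of the BET family, with DMSO libraries of its own. The vehicle DMSO was the control in both, the cells carried no engineered allele, and a single cell line was used, so the values describe LP-1 and not myeloma cells at large. The naming series in the deposited labels gave the DMSO libraries of each compound, and the comparisons ask how far the transcriptional effects of the compounds overlap.

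HSF1 is the transcription factor that drives the heat shock response. In unstressed cells it is held inactive by the chaperones, and when misfolded proteins occupy them it forms trimers that bind heat shock elements, which are inverted repeats of the unit nGAAn in front of chaperone genes. HSP70 chaperones bind unfolded stretches of client proteins with the help of J-domain proteins, which deliver clients and stimulate ATP hydrolysis, and of nucleotide exchange factors, which release them. HSP90 acts later on kinases and receptors that are close to their folded state, and small heat shock proteins hold misfolded proteins without ATP. Plasma cells secrete large amounts of immunoglobulin and carry a high load of protein folding and degradation.

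All 9 plasma cell and myeloma markers examined, among them SDC1 and TNFRSF17, were at 1 RPKM or more in each of the 8 libraries, while every B cell, T cell, myeloid, epithelial and fibroblast marker stayed under 1 RPKM, and EPCAM and COL3A1 were at 0 in all libraries. The summed T cell markers differed by experiment. They were 0.0365 to 0.0541 RPKM in DMSO and 0.0338 to 0.089 RPKM with SGC-CBP30. In the CPI203 experiment they were 0.928 to 1.02 RPKM in DMSO and 0.83 to 1.12 RPKM with CPI203, and the cause was not tested. The summed plasma cell markers, which include IRF4, were 834 and 855 RPKM in DMSO against 600 and 579 with SGC-CBP30, and 997 to 1000 in DMSO against 585 and 597 with CPI203, and their part in the results below was not tested. The depth, estimated from low values that fall on steps of whole reads, was 26000000 to 50100000 reads a library. It was 50100000 and 46800000 with SGC-CBP30 against 34400000 and 34100000 in its DMSO. In the CPI203 experiment it was 26000000 and 29700000 with the compound against 28900000 and 26600000 in DMSO. Of the 10 genes, BAG3 was the least abundant, so depth limits it most. Fold changes are on the scale log2(RPKM + 0.1) and were tested with limma, with Benjamini-Hochberg adjustment over the 14732 genes. Called genes had an adjusted p under 0.05 and changed at least 1.5-fold. The DMSO libraries of the 2 experiments differed for several of the genes, so each compound is compared with its own. The tests compare RNA in bulk cultures, in which a smaller share of expressing cells and less RNA per cell cannot be told apart. With 2 libraries in a group every p-value rests on a spread that limma shares between genes.

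The upstream sequences of the called genes show how alike HSPA1A and HSPA1B are and where the heat shock element units lie. The 250 bases before the annotated start were taken from RefSeq (GRCh38.p14) for the 9 chaperone and cochaperone genes, all matched by symbol (the promoter of HSF1 was not analysed here), and both strands were searched for the pairs of units GAANNTTC and TTCNNGAA and for runs of 3 units, in which a match to one pair shares a unit with a match to the other. Each run thus also counts as 1 match to either pair, and each pair reads the same on both strands. Among 35116 windows of this length in the RefSeq table, 5.78% held GAANNTTC, 6.62% held TTCNNGAA and 0.441% held a run of 3 units. The capitals mark the matches. The HSPA1A window is chr6:31815293-31815542 and that of HSPA1B is chr6:31827488-31827737, both on the plus strand.
HSPA1A: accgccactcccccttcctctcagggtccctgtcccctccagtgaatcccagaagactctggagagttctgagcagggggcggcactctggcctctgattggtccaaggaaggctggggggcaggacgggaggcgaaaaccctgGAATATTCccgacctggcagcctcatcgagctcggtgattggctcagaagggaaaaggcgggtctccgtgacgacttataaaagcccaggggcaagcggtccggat
HSPA1B: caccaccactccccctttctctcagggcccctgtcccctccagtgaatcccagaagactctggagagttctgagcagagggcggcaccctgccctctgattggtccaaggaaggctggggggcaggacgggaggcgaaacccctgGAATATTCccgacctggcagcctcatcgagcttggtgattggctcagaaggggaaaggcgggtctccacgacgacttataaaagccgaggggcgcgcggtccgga
The windows of the inducible HSP70 genes were identical at 235 of 251 aligned positions, or 93.6%, and each held 1 pair of units, GAATATTC, beginning 106 bases before the start of HSPA1A and 105 bases before that of HSPA1B. The genes that rose with CPI203, HSPB1 (chr7:76302423-76302672, plus strand) and BAG3 (chr10:119651130-119651379, plus strand), are shown for comparison.
HSPB1: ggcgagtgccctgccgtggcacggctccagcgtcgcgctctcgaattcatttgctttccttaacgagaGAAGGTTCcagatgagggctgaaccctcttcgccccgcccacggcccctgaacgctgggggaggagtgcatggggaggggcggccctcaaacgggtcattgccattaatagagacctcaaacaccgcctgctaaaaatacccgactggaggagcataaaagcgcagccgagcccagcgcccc
BAG3: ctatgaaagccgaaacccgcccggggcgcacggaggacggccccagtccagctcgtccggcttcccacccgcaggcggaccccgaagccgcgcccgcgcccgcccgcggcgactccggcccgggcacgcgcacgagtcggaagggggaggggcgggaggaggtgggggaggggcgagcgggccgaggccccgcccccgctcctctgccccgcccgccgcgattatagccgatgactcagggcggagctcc
The HSPB1 window held 1 pair, GAAGGTTC, 182 bases before the start, and the BAG3 window held no pair and no run. That of HSPH1 also held none. Only exact units within the 250 bases were searched for, so imperfect or more distant units would be missed.

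Runs of 3 units were found in front of 3 of the 9 genes, HSPA8, HSP90AA1 and HSP90AB1, which rank 12, 120 and 52 by mean level among all genes tested. These stretches were chosen after the values had been seen and are shown because they carry the longest matches. The 0.441% given above is a share of windows, whereas 3 of 9 is a count of genes, some with several annotated starts, so the figures are not alike. HSPA8 held a run at 230 and another at 55 bases before its start (chr11:123062342-123062378 and chr11:123062167-123062203, minus strand). HSP90AA1 held 1 run at 88 bases, followed by a pair at 68 bases, at the second of its 2 annotated starts (chr14:102087093-102087144, minus strand). HSP90AB1 held runs at 165 and 112 bases before the third of its 3 annotated starts (chr6:44247766-44247802 and chr6:44247819-44247855, plus strand).
HSPA8, distal: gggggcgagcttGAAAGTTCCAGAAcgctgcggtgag
HSPA8, proximal: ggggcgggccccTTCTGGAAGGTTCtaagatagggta
HSP90AA1: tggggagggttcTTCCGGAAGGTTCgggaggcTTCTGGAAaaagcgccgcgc
HSP90AB1, distal: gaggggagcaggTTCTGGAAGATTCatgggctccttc
HSP90AB1, proximal: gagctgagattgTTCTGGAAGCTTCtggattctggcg
DNAJB1 held 2 pairs, at 77 and 47 bases before the second of its 3 annotated starts, and none at the others. A match is a description of the letters in the window, and binding of HSF1 was not measured here.

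With SGC-CBP30, HSPA1A and HSPA1B fell to about the same extent, and the other chaperones were lower by less than 1.5-fold or, for BAG3, stayed within the replicate range. With CPI203, HSPA1A and HSPA1B fell as well, whereas HSPB1 and BAG3 rose. SGC-CBP30 gave 2 calls among the 10 genes, both lower, and CPI203 gave 4, 2 lower and 2 higher. Among all genes tested, 7.26% were called with SGC-CBP30, 3.79% lower and 3.47% higher. With CPI203, 27.8% of all genes were called, 14.4% lower and 13.4% higher, so the count with CPI203 stands against a much larger background. At an adjusted p under 0.05 with no fold threshold, 9 of the 10 genes passed with SGC-CBP30, all lower, against 40.4% of all genes, 14.8% lower and 25.6% higher. With CPI203, 9 passed as well, 6 lower and 3 higher, against 64.2% of all genes, 33.1% lower and 31.1% higher. For SGC-CBP30 the 10 genes had a median log2 fold change of -0.26, against 0.07 for all genes tested, and for CPI203 the medians were -0.28 and -0.01. Both treated libraries lay below both DMSO libraries for 9 of the 10 genes with SGC-CBP30, as they did for 27.2% of all genes. With CPI203 this held for 6 of the 10 and for 41.7% of all genes, and the other 4 lay above both DMSO libraries, as did 39.2% of all genes.

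**Figure D1:**
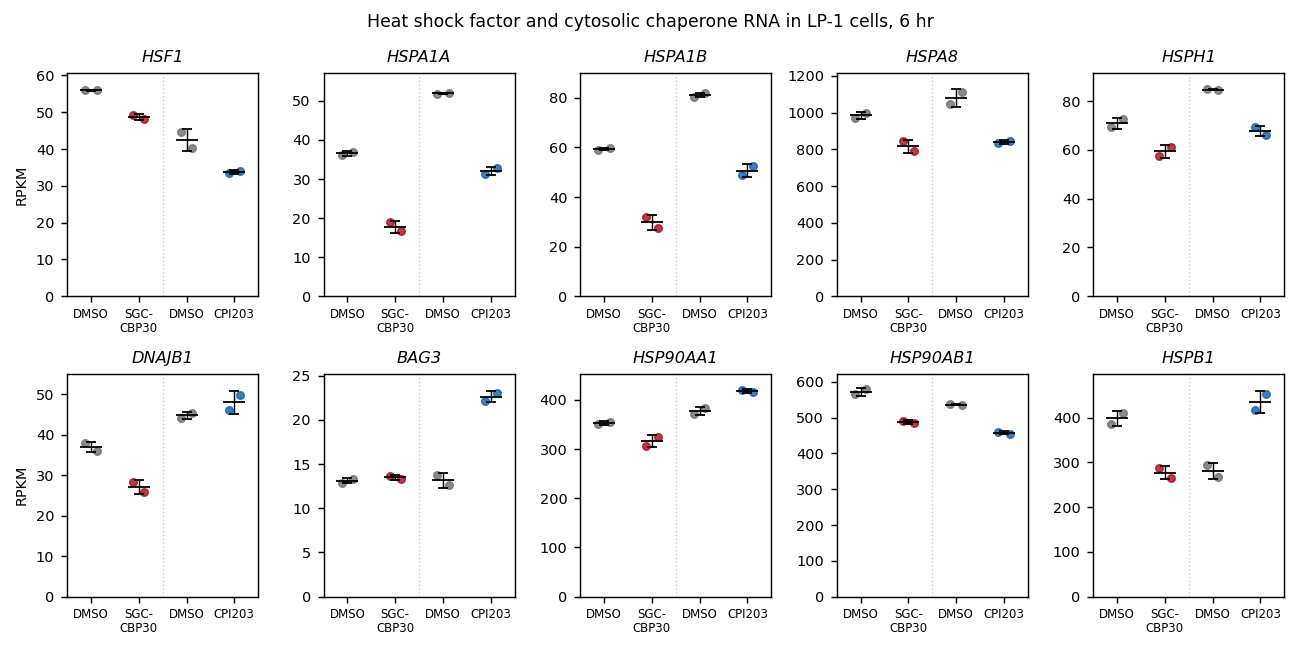
RPKM of the 10 genes in each of the 8 libraries after 6 hr. Each panel is 1 gene with its own linear axis from 0, points are libraries, horizontal bars are means and whiskers are SD (n = 2), and the dotted line separates the SGC-CBP30 experiment on the left from the CPI203 experiment on the right. HSPA1A and HSPA1B were lower with either compound than in their own DMSO libraries, BAG3 was higher with CPI203 at 22.2 and 23.1 RPKM, and HSPB1 moved in opposite directions.

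The factor itself was lower with both compounds, by less than 1.5-fold. HSF1 (ENSG00000185122, chromosome 8) stood at 55.9 and 56 RPKM in DMSO and at 49.3 and 48.1 RPKM with SGC-CBP30. In the CPI203 experiment it stood at 44.6 and 40.3 RPKM in DMSO and at 33.4 and 34.1 RPKM with CPI203. Treated and DMSO libraries did not overlap in either experiment, and all 4 libraries of the CPI203 experiment lay below the lowest library of the SGC-CBP30 experiment. The log2 fold change was -0.20 with SGC-CBP30 (SE 0.0512, adjusted p = 0.0126) and -0.33 with CPI203 (SE 0.0512, adjusted p = 0.000307). The DMSO mean of HSF1 in the CPI203 experiment was 0.758 times that in the other, and with all 4 DMSO libraries as the control the change with SGC-CBP30 was 0.00 (adjusted p = 0.998). It also missed the threshold without a filter on low values (adjusted p = 0.0623) and without DMSO replicate 1 (0.0526), DMSO replicate 2 (0.0583) or compound replicate 2 (0.0812) of the SGC-CBP30 experiment. These are levels of HSF1 RNA, and the activity of the protein is set largely after translation and was not measured here.

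HSPA1A and HSPA1B encode the stress-inducible cytosolic HSP70, and both fell with either compound. HSPA1A (ENSG00000204389, chr6:31783290-31785717 in hg19) went from 36.1 and 37 RPKM in DMSO to 18.9 and 16.6 RPKM with SGC-CBP30. In the CPI203 experiment it went from 51.8 and 52 RPKM in DMSO to 31.4 and 32.8 RPKM. The treated libraries were below all DMSO libraries in both experiments. With SGC-CBP30 HSPA1A fell by 1.04 on the log2 scale (95% interval -1.18 to -0.90, adjusted p = 3.08e-06), to 48.6% of its DMSO mean. With CPI203 it fell by 0.69 (95% interval -0.83 to -0.56, adjusted p = 5.81e-06), to 61.9% of its DMSO mean. With SGC-CBP30 this was the 182nd lowest of the 14732 fold changes, and with CPI203 the 1748th lowest.

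HSPA1B (ENSG00000204388, chr6:31795511-31798031 in hg19) was measured at 59 and 59.7 RPKM in DMSO and at 31.9 and 27.7 RPKM with SGC-CBP30. In the other experiment it was at 80.5 and 81.8 RPKM in DMSO and at 48.9 and 52.5 RPKM with CPI203. The pattern over the libraries was that of HSPA1A at a higher level, with a ratio of HSPA1A to HSPA1B between 0.592 and 0.644 in all 8 libraries. HSPA1B fell by 0.99 (adjusted p = 5.32e-06) with SGC-CBP30 and by 0.68 (adjusted p = 8.85e-06) with CPI203. These genes share long stretches of sequence, since 1766 of the 2434 stretches of 50 bases in the GENCODE transcript of HSPA1A, or 72.6%, are also in that of HSPA1B, so the split of reads between them is uncertain. Their sum is less affected by that split, but how reads that match both genes were counted is not given in the sources used here. The sum was 95.1 and 96.7 RPKM in DMSO against 50.8 and 44.4 RPKM with SGC-CBP30, and 132 and 134 RPKM against 80.3 and 85.3 RPKM in the CPI203 experiment. The sum fell by 1.01 with SGC-CBP30 (95% interval -1.14 to -0.88, adjusted p = 3.01e-06) and by 0.68 with CPI203 (95% interval -0.82 to -0.55, adjusted p = 5.04e-06).

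The starting levels of HSPA1A and HSPA1B differed between the experiments. Their DMSO means in the CPI203 experiment were 1.42 and 1.37 times those in the other, so that the CPI203 libraries, at a mean of 32.1 ± 1.04 RPKM for HSPA1A (SD, n = 2), stood close to the DMSO mean of the other experiment at 36.6 ± 0.586 (n = 2). With all 4 DMSO libraries as the control, neither gene was called with CPI203, at -0.44 (adjusted p = 0.0544) and -0.45 (adjusted p = 0.0357). Called lower with both compounds were 238 genes, or 1.62% of all genes tested, and of the 10 genes these were HSPA1A and HSPA1B.

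HSPA8 and HSPH1 work beside the inducible HSP70, and both were lower with both compounds by less than 1.5-fold. HSPA8 (ENSG00000109971, chr11:122928196-122933938 in hg19), the constitutive HSP70 of the cytosol, was the 12th most abundant gene of those tested. Its level was 972 and 997 RPKM in DMSO and 843 and 793 RPKM with SGC-CBP30, then 1045 and 1114 RPKM in DMSO and 834 and 847 RPKM with CPI203. The groups did not overlap, and the 4 treated libraries lay between 793 and 847 RPKM. The log2 fold changes were -0.27 (SE 0.038, adjusted p = 0.000634) and -0.36 (SE 0.038, adjusted p = 2.1e-05). HSPH1 (ENSG00000120694, chr13:31710761-31736525 in hg19) is an HSP110 protein that serves HSP70 as a nucleotide exchange factor. It was at 69.3 and 72.5 RPKM in DMSO and 57.6 and 61.1 RPKM with SGC-CBP30, and at 84.8 and 84.5 RPKM in DMSO and 69.2 and 66.3 RPKM with CPI203. The changes of -0.26 (adjusted p = 0.00165) and -0.32 (adjusted p = 0.000119) were close to those of HSPA8. After quantile normalization the value of HSPA8 with SGC-CBP30 was -0.05 (adjusted p = 0.614), and with all 4 DMSO libraries as the control that of HSPH1 with CPI203 was -0.19 (adjusted p = 0.111), so neither passed.

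The cochaperones DNAJB1 and BAG3 were not lower with CPI203. DNAJB1 (ENSG00000132002, chr19:14625581-14640582 in hg19), the J-domain protein known as HSP40, was at 37.9 and 36 RPKM in DMSO and at 28.2 and 25.8 RPKM with SGC-CBP30. With CPI203 it was at 46 and 49.9 RPKM, just above the 44.2 and 45.3 RPKM of DMSO. Its log2 fold change of -0.45 with SGC-CBP30 passed the test (SE 0.0586, adjusted p = 0.000375) but was under the 1.5-fold threshold. With all 4 DMSO libraries as the control it was -0.59 (adjusted p = 0.0131), which is a call. The change of 0.10 with CPI203 did not pass the test (95% interval -0.03 to 0.23, adjusted p = 0.169). DNAJB1 overlaps TECR over 12687 bases in the deposited annotation, and whether strand was used in counting is not stated in the sources used here. The log2 fold change of TECR was -0.01 with SGC-CBP30 (adjusted p = 0.904) and 0.43 with CPI203 (adjusted p = 2.44e-05), and its part in the DNAJB1 values was not tested.

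BAG3 (ENSG00000151929, chr10:121410881-121437331 in hg19) is a nucleotide exchange factor that links HSP70 to small heat shock proteins and to selective autophagy. It stood at 12.9 and 13.3 RPKM in DMSO and at 13.7 and 13.3 RPKM with SGC-CBP30, and these groups overlapped. In the other experiment it stood at 13.8 and 12.6 RPKM in DMSO and at 22.2 and 23.1 RPKM with CPI203. Its level was thus between 12.6 and 13.8 RPKM in 6 libraries and higher in the CPI203 libraries. BAG3 rose with CPI203 with a log2 fold change of 0.78 (95% interval 0.63 to 0.92, adjusted p = 3.79e-06), to 172% of DMSO, and the value with SGC-CBP30 was 0.04 (95% interval -0.10 to 0.18, adjusted p = 0.661). The DMSO means of the 2 experiments, 13.1 ± 0.3 and 13.2 ± 0.9 RPKM (SD, n = 2 each), were close for this gene, and the change with CPI203 stayed between 0.71 and 0.84 over all settings tried.

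The HSP90 genes were both lower with SGC-CBP30 and were on opposite sides of DMSO with CPI203. HSP90AA1 (ENSG00000080824, chr14:102547074-102606036 in hg19), the stress-inducible HSP90, was at 350 and 356 RPKM in DMSO and at 307 and 325 RPKM with SGC-CBP30. It was at 371 and 383 RPKM in the other DMSO libraries and at 421 and 416 RPKM with CPI203. The CPI203 libraries were thus the highest of all for this gene and the SGC-CBP30 libraries the lowest. The log2 fold changes were -0.16 (SE 0.0333, adjusted p = 0.00463) and 0.15 (SE 0.0333, adjusted p = 0.00264), both under the 1.5-fold threshold. HSP90AB1 (ENSG00000096384, chr6:44214823-44221620 in hg19), the constitutive HSP90, was at 565 and 579 RPKM in DMSO and 491 and 484 RPKM with SGC-CBP30. It was at 538 and 535 RPKM in the other DMSO libraries and 461 and 455 RPKM with CPI203. The change was -0.23 with either compound (adjusted p = 0.000162 and 3.17e-05). The ratio of HSP90AA1 to HSP90AB1 was 0.62 and 0.615 in DMSO and 0.625 and 0.672 with SGC-CBP30, against 0.689 and 0.716 in DMSO and 0.914 and 0.916 with CPI203. After quantile normalization the changes with SGC-CBP30 were -0.06 for each gene, with an adjusted p of 0.182 for HSP90AA1 and 0.0434 for HSP90AB1. Pseudogene rows of HSP90AB1 held up to 62.3% of the level of the gene, so its level is uncertain.

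HSPB1 showed opposite changes with the compounds. HSPB1 (ENSG00000106211, chr7:75931860-75933612 in hg19) encodes HSP27, a small heat shock protein that holds misfolded proteins for refolding by HSP70. It was at 386 and 410 RPKM in DMSO and at 287 and 266 RPKM with SGC-CBP30. In the CPI203 experiment it was at 294 and 268 RPKM in DMSO and at 418 and 453 RPKM with CPI203. The DMSO libraries of one experiment were thus at the level of the treated libraries of the other, in both directions. With SGC-CBP30 the log2 fold change of HSPB1 was -0.53 (SE 0.0574, adjusted p = 0.000143), under the 1.5-fold threshold, and the gene rose by 0.63 with CPI203 (SE 0.0574, adjusted p = 7.26e-06), to 155% of DMSO. Its DMSO mean in the CPI203 experiment was 0.705 times that in the other. With all 4 DMSO libraries as the control the changes were -0.27 (adjusted p = 0.291) and 0.38 (adjusted p = 0.0848), and neither passed the test. With each library scaled to the same median, the change with SGC-CBP30 was -0.60 (adjusted p = 9.6e-05), which is a call. The call with CPI203 was also lost without replicate 2 of its DMSO (0.57) or without replicate 2 of CPI203 (0.58), where the change came to less than 1.5-fold.

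**Figure D2:**
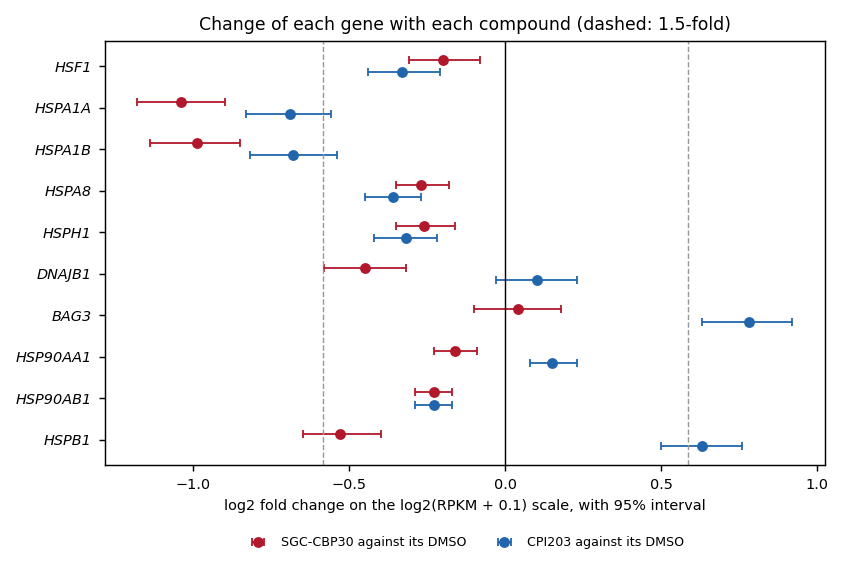
Log2 fold change of each of the 10 genes with SGC-CBP30 (red) and CPI203 (blue) against the DMSO libraries of the same experiment, on the log2(RPKM + 0.1) scale. Points are limma estimates from 2 libraries against 2, bars are 95% intervals, and dashed lines mark 1.5-fold. The estimates of HSPA1A and HSPA1B lie beyond the lower line with both compounds, those of BAG3 and HSPB1 lie beyond the upper line with CPI203, and HSP90AB1 has the same estimate of -0.23 with both.

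The effects were then compared directly, as the change with SGC-CBP30 minus the change with CPI203. The doses differ, and each compound was used in its own experiment, so compound, dose and experiment cannot be told apart in this difference. For 6 of the 10 genes the changes differed at an adjusted p under 0.05, against 50.3% of all genes tested. The difference was -1.16 for HSPB1 (SE 0.0812, adjusted p = 3.99e-06), -0.74 for BAG3 (SE 0.0902, adjusted p = 0.000118) and -0.55 for DNAJB1 (SE 0.0829, adjusted p = 0.000434). These genes were lower or level with SGC-CBP30 and higher or level with CPI203. HSP90AA1 differed by -0.31 (adjusted p = 0.000441), with changes on opposite sides of 0. HSPA1A differed by -0.35 (adjusted p = 0.00742) and HSPA1B by -0.32 (adjusted p = 0.0149), the fall being larger with SGC-CBP30, and their sum differed by -0.33 (adjusted p = 0.00847). Without a filter on low values neither single gene passed (adjusted p = 0.0503 and 0.0974), and HSPA1B did not pass without replicate 2 of CPI203 (adjusted p = 0.0532) or without an intensity trend (adjusted p = 0.0544). With all 4 DMSO libraries as a shared control, that control cancels from the difference, which then compares the treated libraries of the experiments directly. HSPA1A and HSPA1B were then at -0.85 and -0.77, and HSPB1 at -0.65, a smaller difference than its -1.16. These values include any offset between the experiments.

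For the remaining 4 genes the difference did not pass the test. It was -0.00 for HSP90AB1 (95% interval -0.08 to 0.08), 0.07 for HSPH1 (-0.07 to 0.20), 0.09 for HSPA8 (-0.03 to 0.21) and 0.13 for HSF1 (-0.03 to 0.29). The constitutive chaperones HSPA8 and HSP90AB1 thus had intervals that leave room for a difference of up to 0.21 and 0.08 on the log2 scale. After quantile normalization these 2 genes passed, at 0.30 (adjusted p = 0.0328) and 0.17 (adjusted p = 0.000563). HSF1 was at 0.20 without replicate 2 of the DMSO of the CPI203 experiment. With all 4 DMSO libraries as a shared control HSF1 passed at 0.53 (adjusted p = 0.0237), but there the treated libraries of the experiments are compared directly.

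The summed level of the 10 genes was 2544 and 2618 RPKM in DMSO and 2128 and 2061 RPKM with SGC-CBP30, or 81.2% of the DMSO mean. In the CPI203 experiment it was 2568 and 2615 RPKM in DMSO and 2385 and 2429 RPKM with CPI203, or 92.9%. The DMSO sums of the 2 experiments were alike, although single genes differed by up to 1.42 times. HSPA8 and the HSP90 genes made up 70.7% to 77.7% of the sum in each library. With SGC-CBP30, HSPA8, HSP90AA1 and HSP90AB1 were at -0.05, -0.06 and -0.06 after quantile normalization. With median scaling they were at -0.35, -0.24 and -0.31. The size of the summed fall thus depends on the scaling, and the sum was not taken in these settings. The composition of the rest of the sum changed. HSPB1 was 4.05 and 4.24 times the HSPA1A and HSPA1B sum in DMSO and 5.65 and 6 times with SGC-CBP30, and it went from 2.22 and 2 times to 5.21 and 5.31 times with CPI203. BAG3 per 100 RPKM of that sum went from 13.5 and 13.8 to 26.9 and 29.9 RPKM with SGC-CBP30, and from 10.5 and 9.39 to 27.7 and 27 RPKM with CPI203. With SGC-CBP30 these ratios rose because the HSPA1A and HSPA1B sum fell to 49.6% of its DMSO mean, while BAG3 was level and HSPB1 was lower. With CPI203 the sum fell to 62.3%, and BAG3 and HSPB1 rose. Only 1.23% of all genes tested had a lower fold change than HSPA1A with SGC-CBP30, and 11.9% with CPI203. Most genes were thus likewise higher relative to HSPA1A, and the ratios are not particular to BAG3 and HSPB1.

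**Figure D3:**
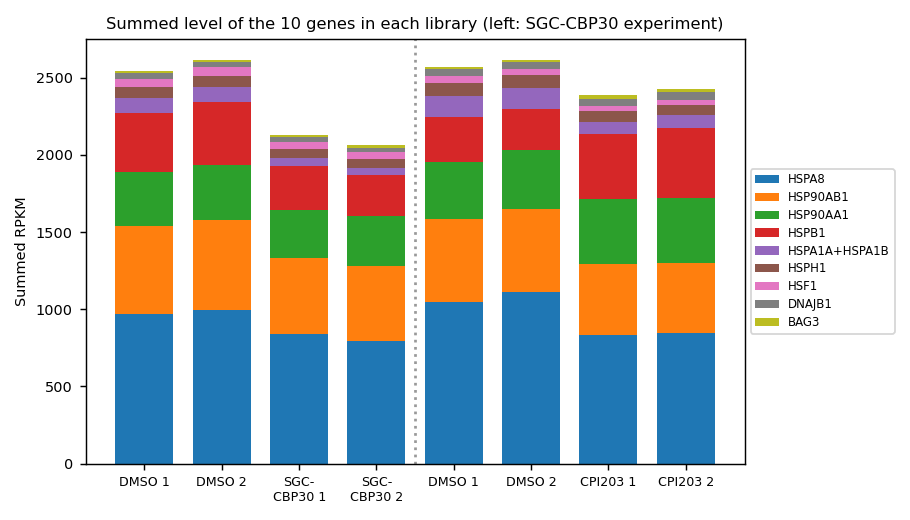
Summed RPKM of the 10 genes in each library, on a linear axis from 0, with each gene as a colored segment and HSPA1A and HSPA1B drawn as 1 segment. Bars left of the dotted line are the SGC-CBP30 experiment and bars right of it the CPI203 experiment. The SGC-CBP30 libraries are the lowest, at 2128 and 2061 RPKM, and in the CPI203 libraries the HSPB1 segment is larger and the HSPA8 segment smaller than in their DMSO libraries.

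The wider chaperone network was described from 10 lists with 101 genes, of which 88 passed the filter on low values. With SGC-CBP30, 3 of the 88 were called, all higher, against the 7.26% of all genes given above, and 44 passed at an adjusted p under 0.05, 16 higher and 28 lower, against 40.4% of all genes, 25.6% higher and 14.8% lower. With CPI203, 15 of the 88 were called, 6 higher and 9 lower, against 27.8% of all genes, and 70 passed at an adjusted p under 0.05, 26 higher and 44 lower, against 64.2% of all genes, 31.1% higher and 33.1% lower. The counts of the single lists below are to be read against the same shares of all genes. The list is described and not tested, and its median log2 fold change was -0.03 and -0.14.

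Of the other heat shock factors and regulators of HSF1, none of the 3 tested was called by limma, although 3 were higher with SGC-CBP30 and 1 higher and 1 lower with CPI203 at an adjusted p under 0.05. HSF2, a relative of HSF1 that can form mixed trimers with it, was higher than in DMSO by 0.50 with SGC-CBP30 (adjusted p = 0.000654) and by 0.25 with CPI203 (adjusted p = 0.0127), both under the 1.5-fold threshold. HSF4 had values of 0.42 and 0.24, and the latter missed the threshold (adjusted p = 0.0599). HSBP1, which binds the trimers of HSF1 and restrains them, was at 0.25 and -0.19. HSF1 was thus the factor of these that was lower with both compounds.

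Among the other HSP70 and HSP110 genes, 4 of 8 were tested and 2 were called, both lower with CPI203. The rest had a mean under 1 RPKM and were not tested, and they did not all go that way. HSPA2 was at 0.508 and 0.503 RPKM in DMSO and at 1.64 and 1.91 RPKM with CPI203. HSPA12A was at 0.153 and 0.27 RPKM against 0.948 and 1.01 RPKM. HSPA12B was lower, at 0.103 and 0.15 RPKM against 0.051 and 0.0447 RPKM, and the groups of HSPA1L overlapped. HSPA4L, an HSP110 protein, fell by 1.20 with CPI203 (means of 11.8 ± 0.988 and 5.06 ± 0.0237 RPKM, SD, n = 2 each; adjusted p = 9.97e-07) and was at -0.47 with SGC-CBP30 (adjusted p = 0.00169). HSPA6, an HSP70 that is made almost solely under stress, stood at 1.5 and 1.71 RPKM in DMSO and at 0.972 and 1.03 RPKM with CPI203, a fall of 0.63 (adjusted p = 0.0162). It was at 1.66 and 1.34 RPKM in the other DMSO libraries and 0.976 and 1.17 RPKM with SGC-CBP30, a value of -0.44 that did not pass (adjusted p = 0.0939). HSPA6 was thus near 1 RPKM in all libraries, where depth limits the test.

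Of the 14 J-domain proteins tested, 9 were higher and 3 lower with CPI203 at an adjusted p under 0.05, with a median of 0.28, and 3 were called higher and 1 lower. With SGC-CBP30, 4 were higher and 2 lower, with a median of 0.11, and 1 was called. DNAJC6, known as auxilin for uncoating clathrin vesicles, rose by 0.99 with SGC-CBP30 (adjusted p = 0.000803) and by 1.60 with CPI203 (adjusted p = 8.08e-06), from 1.78 and 2.37 RPKM in the DMSO means. DNAJB4, a close relative of DNAJB1, rose by 1.20 with CPI203 (adjusted p = 1.42e-05), and DNAJC9, a histone chaperone, rose by 0.86 (adjusted p = 1.83e-07). DNAJC2, which works at the ribosome, fell by 1.25 with CPI203 (adjusted p = 4.02e-08), from 61.8 ± 2.94 to 25.9 ± 0.553 RPKM (SD, n = 2 each). With SGC-CBP30 these last 3 were at 0.28, 0.43 and 0.05, none of them called. None of the 8 nucleotide exchange factors and regulators of HSP70 was called by limma with either compound. At an adjusted p under 0.05 and under 1.5-fold, SGC-CBP30 lowered 1 of them, and CPI203 had 3 above DMSO and 3 below.

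Of 15 HSP90 cochaperones, 7 were lower and 3 higher with SGC-CBP30 and 10 were lower and 3 higher with CPI203 at an adjusted p under 0.05, with none and 3 of them called. FKBP4, an immunophilin of steroid receptor complexes, fell by 0.72 with CPI203 (adjusted p = 4.08e-07) and was at -0.36 with SGC-CBP30 (adjusted p = 0.000198). CHORDC1, a cochaperone that binds the ATPase domain of HSP90, fell by 0.79 with CPI203 (adjusted p = 4.71e-07) and was level with SGC-CBP30, at 32.8 and 32.9 RPKM in the means of DMSO and compound. SUGT1, which brings HSP90 to kinetochore and immune receptor clients, rose by 0.63 with CPI203 (adjusted p = 7.68e-06). Of the other genes listed as small heat shock proteins, 1 of 8 passed the filter. This was HSPB11, at 0.15 with SGC-CBP30 (adjusted p = 0.0638) and 0.49 with CPI203 (adjusted p = 4.24e-05), under the 1.5-fold threshold. The rest of that list was too low to be tested, so HSPB1 cannot be compared with them.

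The chaperonin, mitochondrial and endoplasmic reticulum lists each held 1 called gene, in each case lower with CPI203. Of the 14 CCT chaperonin and prefoldin subunits, which fold actin and tubulin, 12 were lower with CPI203 at an adjusted p under 0.05 and none higher (33.1% and 31.1% of all genes), with a median of -0.30, and PFDN2 was called (a fall of 0.63, adjusted p = 1.36e-07). With SGC-CBP30, 7 were lower and 2 higher, with a median of -0.07. Of 8 mitochondrial chaperones, 7 were lower with CPI203, and DNAJA3 was called (a fall of 0.63, adjusted p = 5.18e-07). Of 12 chaperones of the endoplasmic reticulum, which fold immunoglobulin in plasma cells, SDF2L1 alone was called, with a fall of 0.86 with CPI203 (adjusted p = 6.07e-07). The median of this list was -0.06 with SGC-CBP30 and -0.01 with CPI203.

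Among other heat-inducible genes, several of which are also targets of other stress factors, SQSTM1 and HMOX1 were called higher with SGC-CBP30 and SQSTM1 and IER5 with CPI203. SQSTM1, the autophagy receptor p62, was at 208 and 203 RPKM in DMSO and at 324 and 309 RPKM with SGC-CBP30, and at 164 and 160 RPKM in DMSO and 485 and 486 RPKM with CPI203. It rose by 0.62 (adjusted p = 1.48e-06) and by 1.58 (adjusted p = 9.4e-10). HMOX1, the heme oxygenase of the oxidative stress response, was at 32 and 28.9 RPKM in DMSO and at 107 and 97.6 RPKM with SGC-CBP30, a rise of 1.75 (adjusted p = 3.72e-07). With CPI203 HMOX1 was higher by 0.54 (adjusted p = 9.21e-05), under the 1.5-fold threshold. IER5, an immediate early gene whose protein promotes dephosphorylation of HSF1, rose by 1.13 with CPI203 (adjusted p = 2.19e-07) and was at -0.36 with SGC-CBP30 (adjusted p = 0.00129). Its signs were those of HSPB1. SERPINH1, the collagen chaperone HSP47, fell by 0.92 with CPI203 (adjusted p = 3.01e-07) and was at -0.22 with SGC-CBP30. At an adjusted p under 0.05, 6 of the 9 genes of this list were higher and 3 lower with CPI203, and with SGC-CBP30 2 were higher and 3 lower while 4 did not pass.

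**Figure D4:**
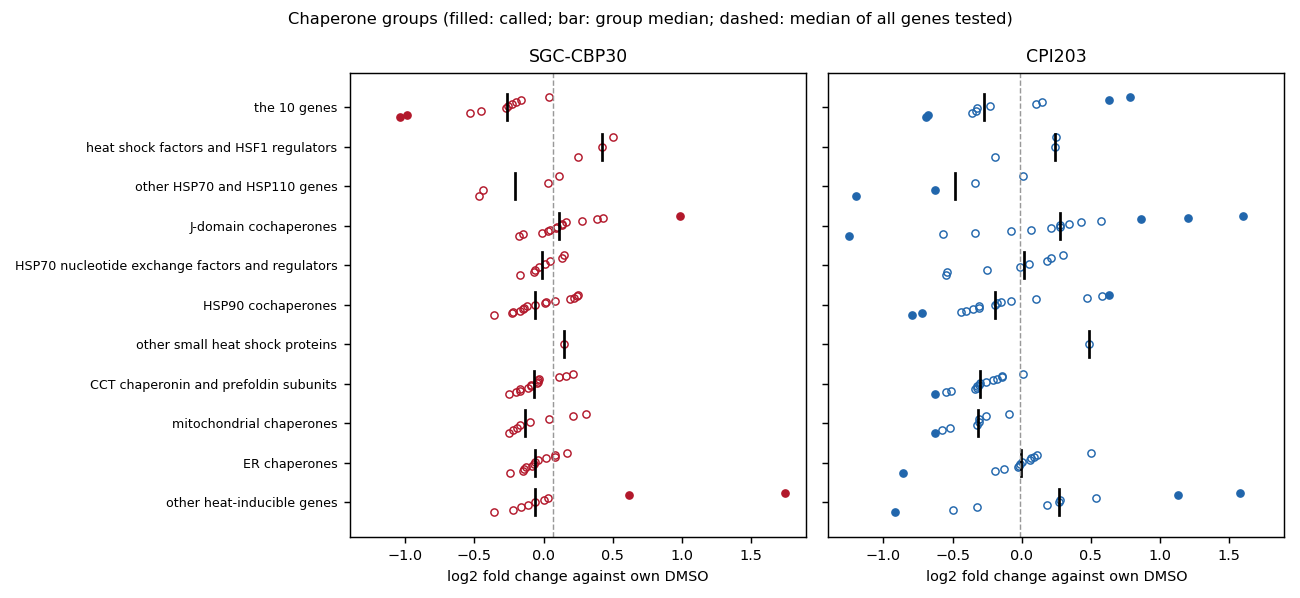
Log2 fold change of every tested gene of the 10 genes and of the 10 network lists, with SGC-CBP30 on the left and CPI203 on the right. Circles are genes, filled where called, black bars are list medians, and dashed lines are the medians of all genes tested (0.07 and -0.01). The 10 genes have the medians -0.26 and -0.28, and HMOX1 at 1.75 is the point farthest right with SGC-CBP30.

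The genes whose profile over the 8 libraries was nearest to HSPA1A were looked for among all genes tested, using the root mean square difference of the log2 values after the DMSO mean of each experiment had been subtracted. HSPA1B was at a distance of 0.0269, and no other gene was within that distance. HSPA1A and HSPA1B share long stretches of sequence, as given above, and the part of this in their closeness was not tested. Outside the 10 genes the nearest were NRG2, a neuregulin ligand, at 0.0556, HES6, a transcriptional regulator of the HES family, at 0.0557, and APOBEC3G, a cytidine deaminase, at 0.0573. Their log2 fold changes with SGC-CBP30 and CPI203 were -0.99 and -0.67 for NRG2, -0.96 and -0.74 for HES6, and -0.98 and -0.65 for APOBEC3G. HES6 was the most abundant of them, with DMSO means of 450 and 263 RPKM and means of 231 and 158 RPKM with SGC-CBP30 and CPI203. Its DMSO level was higher in the SGC-CBP30 experiment, whereas that of HSPA1A was higher in the CPI203 experiment.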

How the data were processed

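RNA of 8 LP-1 samples was sequenced by a service provider. The authors deposited 1 RPKM value per gene and library, and the submitters' processing notes name TopHat 1.4.1, Cufflinks and hg19, while the annotation release and the use of strand are not given in the sources used here. The deposited values are not counts, so no count test was run and depth was estimated. Another 24 columns of libraries outside these samples were not used, nor were 27 genes that lacked a value in some library.

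The 14732 genes whose mean reached 1 RPKM were analysed as log2(RPKM + 0.1), with no other scaling. limma 3.58.1 in R 4.3.3 was fitted to the 4 group means with an intensity trend (4 residual and 5.5 prior degrees of freedom), and the fit was tested on simulated data. Tables and figures were made with Python 3.11.15, pandas 2.3.3, numpy 2.4.6 and matplotlib 3.10.9. The genes and lists were chosen with earlier results of these data known. Named were all 10 genes, each called list gene (in lists with over 4 calls, the 2 largest rises and 2 largest falls), the HSPA1A and HSPA1B sum, and the 3 profiles nearest to the gene with the largest change. Further list genes (HSF2, HSF4, HSBP1, HSPB11 and the untested HSPA1L, HSPA2, HSPA12A and HSPA12B) were chosen after their values were seen. Promoters came from RefSeq (GRCh38.p14) and transcripts from GENCODE release 29. A comparison of protein sequences was planned but not made here.

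Alternatives were the replicate number as a block, controls from all 4 DMSO libraries, quantile normalization, median scaling, a minimum mean of 5 RPKM or no minimum, a pseudocount of 1, separate fits, no intensity trend, no fold threshold and each library left out in turn. A crossed replicate block and the sum of HSPA1A and HSPA1B as 1 gene were added after the data were seen. In any pair of libraries, at most 0.024% of 8298 genes whose mean reached 10 RPKM had identical values.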

Additional observations from a re-analysis of the deposited data

How the results depend on the processing

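Called genes among the 10 numbered 2 with SGC-CBP30, and 1 with HSPA1A and HSPA1B summed, which merges the called pair. They numbered 3 with median scaling, where HSPB1 was added, and 3 with all 4 DMSO libraries as controls, where DNAJB1 was added. With CPI203 they numbered 4, and 1 with all 4 DMSO libraries as controls, which was BAG3. With no fold threshold, 9 genes passed with either compound, and in the wider network 44 instead of 3 with SGC-CBP30 and 70 instead of 15 with CPI203. Without a filter on low values the network had 4 calls with SGC-CBP30 and 20 with CPI203. Leaving out each library in turn gave 2 to 2 genes with SGC-CBP30, 3 to 4 with CPI203 and 5 to 7 for the difference between the compounds, and 3 to 3 and 15 to 18 in the network. The difference passed for 4 genes without a filter, 5 without an intensity trend and 8 after quantile normalization. It passed for 7 with all 4 DMSO libraries, where it compares the treated libraries of the experiments directly.

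Of 554 values of single genes under the alternatives, 528 kept their direction and their status as called (for the difference, as passing an adjusted p of 0.05), 5 gained it, 9 lost it and 12 changed sign or came to 0. At an adjusted p of 0.05 alone, with no fold threshold, 15 of the 554 values no longer passed and 4 newly passed. Those that changed sign were HSF1 with SGC-CBP30 (0.00 with all 4 DMSO libraries), BAG3 with SGC-CBP30 (-0.04 with median scaling and -0.05 with quantile normalization), and differences between the compounds that were near 0. With all 4 DMSO libraries these were -0.04 for HSPA8, -0.19 for HSPH1 and 0.09 for HSP90AB1. In that setting the shared control cancels, and the treated libraries of the experiments are compared directly. With median scaling the difference was 0.00 for HSPH1, and with quantile normalization 0.17 for HSP90AB1. For HSP90AB1 it was between -0.02 and 0.02 when 1 library was left out, and it lost its negative sign in 4 cases (0.02 without DMSO replicate 2 and 0.01 without SGC-CBP30 replicate 2 of that experiment, 0.00 without DMSO replicate 2 of the CPI203 experiment and 0.01 without CPI203 replicate 1). The cause was not tested.

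The study calls its DMSO controls paired, without naming the pairs, and same-numbered libraries did not deviate together. The deviations of treated and DMSO libraries with the same number had a correlation of -0.172 in the SGC-CBP30 experiment and -0.0395 in the CPI203 experiment over 8298 genes. With the replicate block, 2, 4 and 6 of the 10 genes and 3 and 15 network genes passed, and the crossed replicate block gave the same 5 counts. Where a library was left out, the lone library of its group was assumed to vary like the other groups. Depth limits HSPA6 and other genes near 1 RPKM.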

Other observations

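Pseudogenes of the chaperones were listed with their own values, and their split of reads with the parent genes is uncertain. The 2 HSPB1 pseudogene rows summed to 122 and 124 RPKM in DMSO and 94.6 and 84.1 RPKM with SGC-CBP30, and to 97 and 93.8 RPKM in DMSO and 153 and 157 RPKM with CPI203. Both followed the parent gene, with log2 fold changes of -0.48 and 0.71 for HSPB1P1 and of -0.44 and 0.68 for HSPB1P2. The 4 HSP90AB1 pseudogene rows summed to between 257 and 328 RPKM, and HSP90AB3P, the most abundant of them, was at -0.26 with SGC-CBP30 and -0.20 with CPI203. The 17 HSPA8 pseudogene rows summed to between 125 and 179 RPKM, up to 16.6% of HSPA8. The 3 HSP90AA1 pseudogene rows summed to between 32.9 and 54.7 RPKM, and HSP90AA6P was at -0.20 and 0.18, on the same sides of 0 as HSP90AA1.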
